A study of Homo sapiens with 36 samples.

Results

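The ATP-binding cassette (ABC) transporter genes were followed across 36 RNA-seq libraries of 2 human renal carcinoma lines. Members were taken by symbol: every protein-coding gene named ABCA to ABCG with a number, plus CFTR, the member of the C family that carries another name, with the TAP peptide transporters left out. The rule gave 46 of the 45478 genes in the count matrix. They fall into 12 ABCA, 9 ABCB, 12 ABCC (CFTR included), 4 ABCD, 1 ABCE, 3 ABCF and 5 ABCG genes. The lines, A498 and 786-O, are established lines from human renal cell carcinoma. Each was used as cells selected in rising sunitinib, an inhibitor of VEGF, PDGF and related receptor kinases, and as parental cells. Per the labels, stable growth was reached at 2 µM for A498 and 4 µM for 786-O. Cells of each of the 4 states were exposed to avelumab, durvalumab or atezolizumab, antibodies against PD-L1, for 24 h at 10 mg/mL as the labels write the dose, which gives 12 groups of 3 libraries. All groups carry 1 of the antibodies, and no untreated libraries were analysed here. The labels do not name separate cultures for the 3 libraries of a group, and the p-values below therefore measure the spread between these libraries alone, which may be technical.

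ABC proteins use the energy of ATP to move molecules across membranes, and most of them export. ABCB1 (P-glycoprotein), ABCG2 (breast cancer resistance protein) and several ABCC proteins (the multidrug resistance proteins) pump drugs and conjugates out of cells, and in the kidney tubule they help to secrete organic ions. Sunitinib is a known substrate of ABCB1 and ABCG2. The ABCA proteins move lipids, ABCD proteins serve the peroxisome and the lysosome, several ABCB proteins work in mitochondria, and ABCE1 and the ABCF proteins act on ribosomes and translation and do not span a membrane.

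Total counts per library lay between 19994900 and 58122900, rounded to 6 significant digits. The 4 cell states have 4 different batch labels; a resistant set and its parental set therefore differ in batch as well, and the 2 cannot be told apart. Antibodies are compared inside 1 batch. The libraries labelled A498 resistant did not resemble A498 parental cells. HIF1A, which parental A498 expresses and 786-O hardly does, averaged 8.99 ± 0.493 CPM (counts scaled to a library total of 1e+06) in the libraries labelled A498 resistant (SD, n = 9), against 294 ± 7.37 CPM in A498 parental libraries, and it averaged 8.71 and 9.36 CPM in 786-O resistant and 786-O parental libraries. Over 20752 genes, the mean log profile of the libraries labelled A498 resistant had a correlation of 0.990 with 786-O resistant, 0.962 with 786-O parental and 0.884 with A498 parental libraries, a description across genes of one series. A difference between the 2 A498 sets is therefore given as labelled and cannot be assigned to resistance. Of 9 markers of renal tubule and clear cell carcinoma, 7 or 8 reached 1 CPM in every state. Leukocyte, endothelial and hepatocyte markers summed to at most 4.18, 2.32 and 1.25 CPM per state. Fibroblast markers ranged between 6.44 and 55.8 CPM summed, led by COL1A1 in A498 parental cells and by LUM in the other states. In bulk RNA, fewer cells that express a gene and less RNA per cell cannot be told apart.

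Promoters of the genes that carried the results are shown first, as RefSeq gives them for GRCh38.p14: the 250 bases before the start site, 5′ to 3′ on the gene's strand. ABCA2, ABCA3, ABCA7 and ABCC10 were picked from the members higher in both sets labelled resistant. ABCC2 and ABCC9 were picked from those that separated the lines, and ABCC5 because it differed between antibodies. Other members met these descriptions and are not shown, among them ABCA5, ABCC11 and ABCD4, which were also higher in both sets labelled resistant. Capitals mark matches, found on either strand, to short motifs that are known from many promoters. One is TATAAA, the letters of the classical TATA box. Another is GGGCGG, the GC box bound by factors of the Sp family. The core of the antioxidant response element, which NFE2L2 binds, was searched as TGACNNNGC. The core of the hypoxia response element, which the HIF factors bind, was searched as ACGTG. The interferon-stimulated response element was searched as GAAA repeated after any 2 bases. A CACGTG holds ACGTG on both strands.
ABCA2: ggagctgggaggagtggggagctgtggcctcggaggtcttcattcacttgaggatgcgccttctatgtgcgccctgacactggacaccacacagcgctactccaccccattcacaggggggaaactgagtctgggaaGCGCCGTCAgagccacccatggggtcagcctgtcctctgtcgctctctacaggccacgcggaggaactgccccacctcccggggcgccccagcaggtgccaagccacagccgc
ABCA3: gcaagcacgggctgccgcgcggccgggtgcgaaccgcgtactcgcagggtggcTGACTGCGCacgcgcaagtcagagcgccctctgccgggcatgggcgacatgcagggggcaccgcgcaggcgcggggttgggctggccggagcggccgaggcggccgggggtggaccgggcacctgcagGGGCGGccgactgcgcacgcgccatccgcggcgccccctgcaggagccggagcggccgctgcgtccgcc
ABCA7: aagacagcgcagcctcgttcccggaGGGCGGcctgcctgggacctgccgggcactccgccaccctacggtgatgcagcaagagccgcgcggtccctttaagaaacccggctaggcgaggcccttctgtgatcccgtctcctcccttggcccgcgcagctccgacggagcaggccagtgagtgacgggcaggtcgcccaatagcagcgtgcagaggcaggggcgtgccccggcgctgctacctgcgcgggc
ABCC10: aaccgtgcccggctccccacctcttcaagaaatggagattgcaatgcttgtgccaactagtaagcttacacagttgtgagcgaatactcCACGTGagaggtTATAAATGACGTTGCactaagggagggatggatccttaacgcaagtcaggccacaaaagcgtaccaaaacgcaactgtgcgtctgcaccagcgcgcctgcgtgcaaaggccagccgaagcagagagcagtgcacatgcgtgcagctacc
ABCC2: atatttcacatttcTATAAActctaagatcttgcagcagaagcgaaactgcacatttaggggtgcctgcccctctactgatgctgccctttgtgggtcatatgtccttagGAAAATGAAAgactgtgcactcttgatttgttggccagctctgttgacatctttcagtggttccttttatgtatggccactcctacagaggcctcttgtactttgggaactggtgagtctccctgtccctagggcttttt
ABCC5: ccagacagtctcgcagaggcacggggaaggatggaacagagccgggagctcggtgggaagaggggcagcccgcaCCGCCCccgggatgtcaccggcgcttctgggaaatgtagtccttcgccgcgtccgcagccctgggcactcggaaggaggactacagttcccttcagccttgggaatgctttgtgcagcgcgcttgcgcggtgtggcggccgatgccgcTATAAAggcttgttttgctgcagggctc
ABCC9: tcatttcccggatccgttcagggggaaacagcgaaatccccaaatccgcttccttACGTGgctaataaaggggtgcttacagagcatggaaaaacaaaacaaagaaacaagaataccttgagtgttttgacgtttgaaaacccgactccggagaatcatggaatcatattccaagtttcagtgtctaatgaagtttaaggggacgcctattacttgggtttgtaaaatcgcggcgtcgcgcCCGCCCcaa

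These windows lie at chr9:137028923-137029172 (minus strand), chr16:2340729-2340978 (minus), chr19:1039857-1040106 (plus), chr6:43427291-43427540 (plus), chr10:99782390-99782639 (plus), chr3:184017885-184018134 (minus) and chr12:21941427-21941676 (minus). Their GC content was 65.2%, 79.2%, 70.4%, 53.6%, 45.6%, 64.8% and 46% in that order, against a median of 58.0% over 35116 RefSeq promoter windows of the same length. The windows shown for ABCA2, ABCA3 and ABCC10 held TGACNNNGC, which 10.9% of all windows hold. Over 300 bases, 12 of the 54 promoters of all members held TGACNNNGC, beside 13.3% of all promoters, and this was not tested. In ABCC10 the TGACNNNGC stood next to a TATAAA, and the CACGTG lay a few bases upstream. TATAAA, held by 10.7% of all windows, was also found in ABCC2 and ABCC5, where it lay near the start site in ABCC5. GGGCGG was found in ABCA3, ABCA7, ABCC5 and ABCC9 and in 42.6% of all windows, and the interferon-stimulated response element in ABCC2 and in 3.02% of all windows. ACGTG was found in ABCC10 and ABCC9 and in 18.5% of all windows. A match is a description of the letters in these windows, not of a bound factor. RefSeq gives ABCA2 and ABCC10 a second promoter each, and the one shown belongs to the most upstream start. Over the 300 bases given for it, the second ABCA2 promoter holds 6 GGGCGG and the second ABCC10 promoter 5, and neither holds any of the other motifs searched. RefSeq promoters were found for 36 of the 46 members.

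Of the 46 members, 32 reached a mean of 1 CPM in at least 1 cell state and 25 reached 10 CPM. The edgeR filter on low counts passed 35 of them in at least 1 main comparison. The other 11 never averaged more than 0.19 CPM in a state: ABCA6, ABCA8, ABCA9, ABCA10, ABCB11, ABCC8, ABCC12, ABCD2, ABCG5, ABCG8 and CFTR. CFTR, the epithelial chloride channel, had 69 counts over the 9 786-O resistant libraries and 27 over the 9 786-O parental libraries. ABCC8, the sulfonylurea receptor of the pancreatic beta cell, had no counts in the 9 libraries labelled A498 resistant and 5 over the 9 A498 parental libraries, and ABCC12 likewise had 0 and 5. Together the 46 genes took 1562 ± 43.7 CPM in the libraries labelled A498 resistant (SD, n = 9), 1823 ± 43.4 CPM in A498 parental, 1777 ± 58.2 CPM in 786-O resistant and 1253 ± 34.8 CPM in 786-O parental libraries.

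Per length of exon (RPKM, CPM per kilobase of exon), which is needed to compare genes with each other, the leading member differed between states. ABCA2 led in 786-O resistant libraries at 40.6 RPKM, ahead of ABCF1 at 27.7 RPKM and ABCC1 at 20.7 RPKM. In 786-O parental libraries ABCF1, a translation factor relative, led at 27.1 RPKM, and ABCA2 stood at 9.91 RPKM. ABCC3 at 31.4 RPKM, ABCC1 at 28.7 RPKM and ABCC2 at 26.9 RPKM led in A498 parental libraries. With the longest transcript as the length, ABCE1 stood there at rank 3 and ABCC1 at rank 4. The libraries labelled A498 resistant were led by ABCF1 at 28.3 RPKM and ABCA2 at 25.3 RPKM. Per length of exon, the 3 genes that led in parental A498 are thus all organic anion pumps. In every other state the first place belonged to ABCF1 or to the lipid transporter ABCA2. The map of the genes shows these levels in CPM for the 12 groups.

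**Figure D1:**
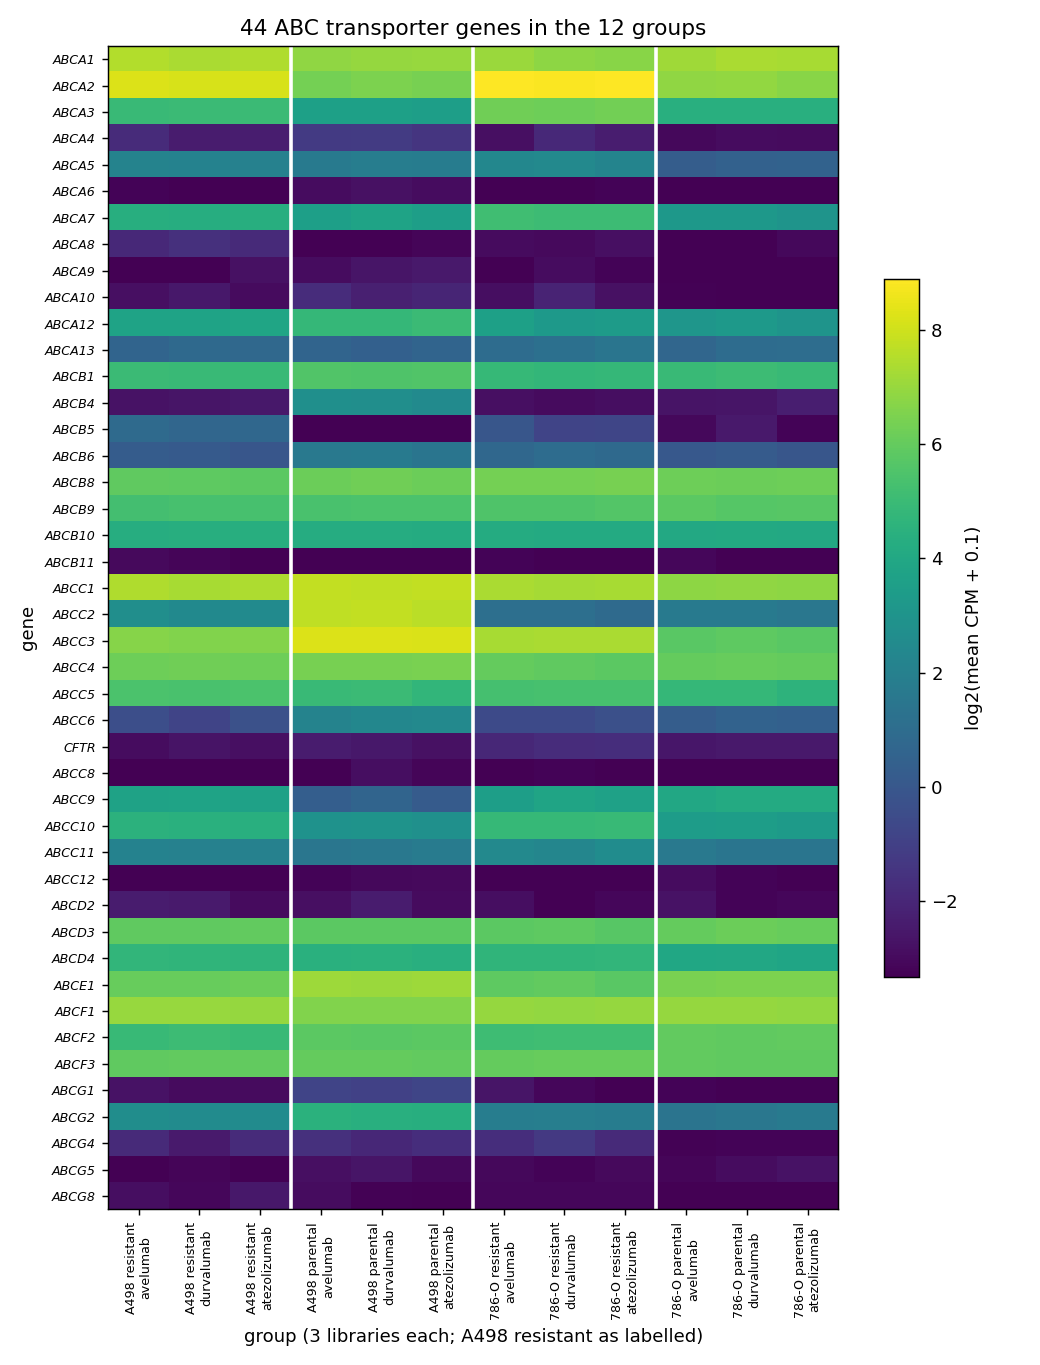
Mean level of 44 ABC transporter genes, as log2(CPM + 0.1), in the 12 groups of 3 libraries, with white lines between the 4 cell states. Columns of 1 state look alike, ABCC2, ABCB4 and ABCG2 stand out in A498 parental libraries, and ABCA2 is brightest in 786-O resistant libraries.

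In 786-O, whose resistant and parental libraries were both low in HIF1A as given above, resistant cells had more RNA of 4 lipid transporters (ABCA2, ABCA3, ABCA5 and ABCA7) and of the pumps ABCC3 and ABCC10, each at least 2-fold, while the drug pumps ABCB1 and ABCG2 changed by less than 0.3 on the log2 scale. Of the 32 members tested in 786-O, 16 were higher and 12 were lower in resistant cells (edgeR adjusted p under 0.05 over 19369 genes), beside a background of 43.6% of all genes tested called higher and 40.2% called lower. The share of members called was thus close to that of all genes. At least 2-fold changes were found in 8 members upward (background 14.5%) and 1 downward (background 5.67%). The 8 were ABCA2, ABCA3, ABCA5, ABCA7, ABCB5, ABCC3, ABCC10 and ABCG4, and the 1 was ABCC6. The median log2 change was 0.12 over the 32 members and 0.033 over all genes. With raw library sizes in place of the scaling, the median of all genes moved by 0.11 to 0.14, and the members called were 19 higher and 11 lower. Under single antibodies, the members called higher and lower were 15 and 10 for avelumab (backgrounds 37.6% and 35.6%), 13 and 13 for durvalumab (36.7% and 34.6%) and 14 and 11 for atezolizumab (36.6% and 35.3%). By at least 2-fold they were 8 and 1 for avelumab (14.9% and 5.75%), 8 and 1 for durvalumab (14.2% and 5.51%) and 9 and 0 for atezolizumab (14.7% and 6.21%).

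ABCB1 fell slightly in 786-O resistant cells and ABCG2 was low in both states. ABCB1 had 25.8 CPM in the lowest, 28.2 in the median and 30.9 in the highest of 9 resistant libraries, against 27.5, 31.5 and 34.3 CPM in the 9 parental libraries. The ranges overlapped, yet the mean fell by 0.28 ± 0.033 on the log2 scale (SE; edgeR adjusted p = 2.61e-09), and it passed under each of the 3 antibodies, with log2 changes of -0.41 to -0.17. The smallest of these, under avelumab, was -0.11 without avelumab parental replicate 1, with an edgeR adjusted p of 0.0855, and -0.07 with raw library sizes, with an edgeR adjusted p of 0.302. ABCG2 had 3.14, 3.44 and 4.12 CPM in resistant libraries, against 2.39, 2.74 and 3.68 CPM in parental libraries. Its log2 change was 0.22 ± 0.074 (edgeR adjusted p = 0.0076). Only the avelumab libraries passed by themselves, at 0.36, and without avelumab resistant replicate 3 that value was 0.25 (edgeR adjusted p = 0.105).

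The ABCC genes of 786-O moved in both directions, and the largest changes were in ABCC3 and ABCC10. ABCC3 exports glucuronide conjugates across the basolateral membrane. It had 153, 158 and 172 CPM in resistant libraries (lowest, median, highest), against 52.6, 55.8 and 63.6 CPM in parental libraries. The 2 sets were far apart, with a log2 change of 1.42 ± 0.027 (edgeR adjusted p = 1.17e-29). ABCC10, which confers resistance to taxanes when overexpressed, had 28.5, 29.5 and 30.8 CPM in resistant and 9.26, 10.4 and 12 CPM in parental libraries. No library of either set came near the other, and the log2 change was 1.37 ± 0.038 (edgeR adjusted p = 2.92e-25). ABCC1, a broad exporter of glutathione conjugates, had 143, 159 and 168 CPM in resistant and 109, 112 and 127 CPM in parental libraries, and rose by 0.35 ± 0.027 (edgeR adjusted p = 9.53e-14). ABCC5, an exporter of cyclic nucleotides and glutamate conjugates, had 37.9, 39.9 and 42.7 CPM in resistant and 22.5, 27.3 and 29.9 CPM in parental libraries. It rose by 0.48 ± 0.030 (edgeR adjusted p = 1.36e-15), and neither ABCC1 nor ABCC5 overlapped between the states. ABCC11, known for the earwax trait, had 4.26, 5.53 and 6.92 CPM in resistant and 2.18, 2.62 and 3.17 CPM in parental libraries, and also rose, by 0.88 ± 0.074.

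The other 4 ABCC genes tested were lower in 786-O resistant cells. Of the 9 tested, 5 were thus higher and 4 lower, beside 43.6% and 40.2% of all genes. ABCC2, the apical conjugate pump of the proximal tubule, had 1.65, 2.01 and 2.25 CPM in resistant and 1.82, 3.10 and 3.74 CPM in parental libraries. It fell by 0.69 ± 0.091 (edgeR adjusted p = 3.45e-08), although 1 or more parental libraries lay within the resistant range. ABCC9, the sulfonylurea receptor of muscle-type ATP-sensitive potassium channels, had 10.6, 12.6 and 14.9 CPM in resistant and 15.4, 16.9 and 19.6 CPM in parental libraries. It fell by 0.54 ± 0.043 (edgeR adjusted p = 3.95e-13), with no overlap. ABCC4, which exports cyclic nucleotides and urate, had 56.1, 61.2 and 67.3 CPM in resistant and 62.9, 64.4 and 69.1 CPM in parental libraries, which overlap, and fell by 0.21 ± 0.025. Under avelumab its change of -0.10 turned to 0.0052 when raw library sizes replaced the scaling. It was -0.06 and not called with genes under a mean of 1 CPM left out (edgeR adjusted p = 0.158), and its call was lost in 3 of the fits that left out 1 library (edgeR adjusted p up to 0.123). ABCC6, a transporter whose loss causes ectopic calcification, fell by 1.14 ± 0.13 to 0.606 ± 0.11 CPM in resistant libraries, against 1.24 ± 0.192 CPM in parental libraries. Its counts are uncertain, because 18.2% of its 50-base stretches also occur in other genes, mostly the pseudogene ABCC6P1.

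**Figure D2:**
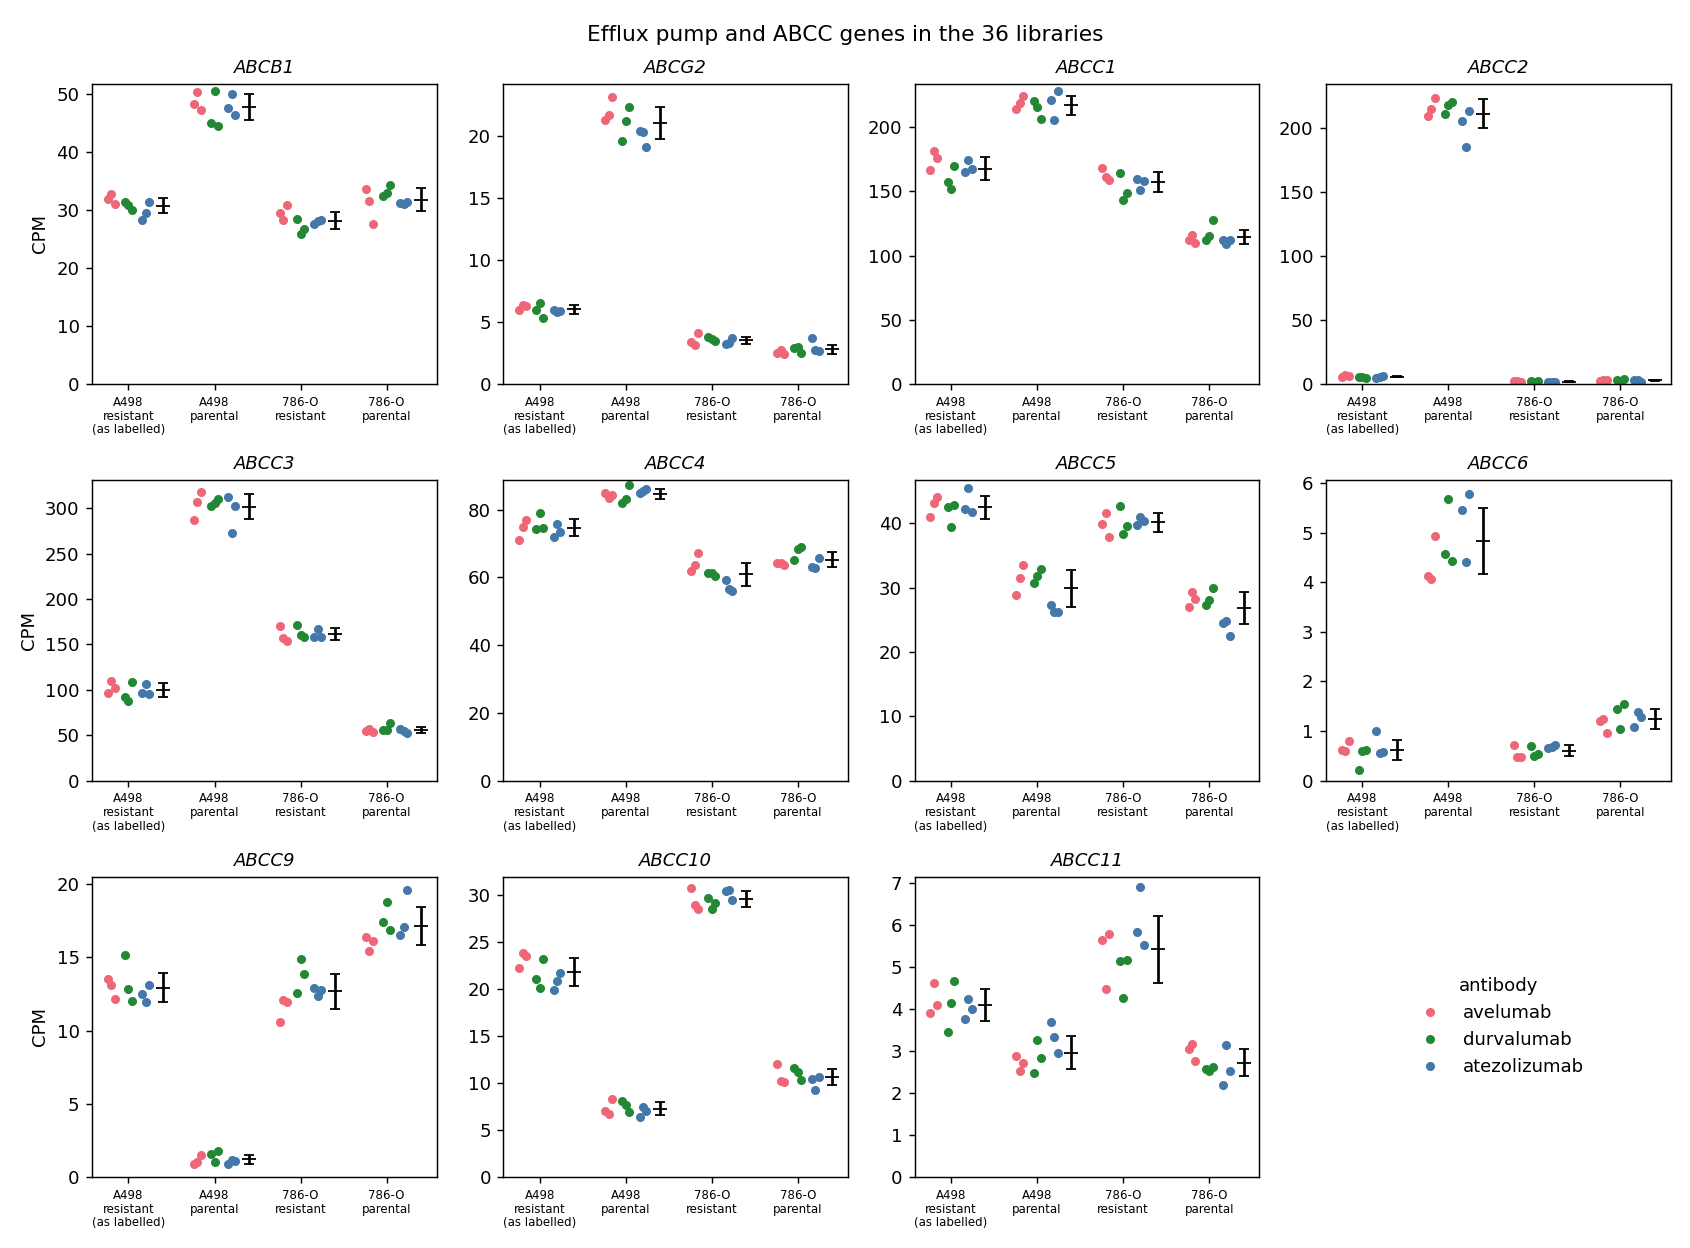
CPM of ABCB1, ABCG2 and 9 ABCC genes in each of the 36 libraries, by cell state and antibody, with black bars for the mean and SD of the 9 libraries of a state. ABCC3 and ABCC10 separate 786-O resistant from 786-O parental libraries without overlap, ABCC2 is high in A498 parental libraries only, at 185 to 224 CPM, and ABCC9 is low there.

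Of the 7 ABCA genes tested in 786-O, 6 were higher and 1 was lower in resistant cells, beside 43.6% and 40.2% of all genes, and 4 of the 6 were higher by at least 2-fold, beside 14.5%. ABCA2, a lipid transporter of late endosomes and lysosomes, had 410, 474 and 497.7 CPM in resistant libraries, against 104, 114 and 125 CPM in parental libraries, a log2 change of 1.93 ± 0.030 (edgeR adjusted p = 7.22e-31). ABCA3, which loads phospholipid into the lamellar bodies of lung cells, had 68.8, 76.5 and 80.4 CPM in resistant libraries, against 20.0, 21.1 and 22.1 CPM in parental libraries, a change of 1.74 ± 0.030. ABCA7, a phospholipid exporter linked to Alzheimer disease, had 31.1, 34.7 and 37.9 CPM in resistant and 7.16, 8.82 and 9.70 CPM in parental libraries, a change of 1.87 ± 0.039. ABCA5, a lysosomal member, had 4.28, 4.70 and 5.74 CPM in resistant and 0.826, 1.26 and 1.47 CPM in parental libraries, a change of 1.86 ± 0.080. In all 4 genes every resistant library lay above every parental one, and all 4 passed under each antibody. The 4 were named for a change of at least 2-fold past the threshold, so this separation restates that choice. ABCA1, the cholesterol and phospholipid exporter of nascent high-density lipoprotein, went the other way, at 117 ± 16.6 CPM in resistant and 156 ± 18.4 CPM in parental libraries, a change of -0.53 ± 0.071 (edgeR adjusted p = 1.01e-05). The ABCA1 ranges overlapped, at 92.9 to 137 CPM in resistant and 133 to 197 CPM in parental libraries. Its change was -0.66 under durvalumab and -0.71 under atezolizumab. Under avelumab it was -0.21 and did not pass (edgeR adjusted p = 0.129). ABCA12, the lipid transporter of keratinocytes, had 8.20, 10.52 and 12.8 CPM in resistant and 7.29, 8.39 and 10.7 CPM in parental libraries, which overlap, and changed by 0.19 ± 0.063, with values of 0.39 under avelumab, -0.07 under durvalumab and 0.25 under atezolizumab. The atezolizumab value lost its call in 8 of 18 fits that each left out 1 library and in 1 fit of all 36 (edgeR adjusted p = 0.0586). ABCA13 changed by 0.18 ± 0.085 (edgeR adjusted p = 0.048).

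**Figure D3:**
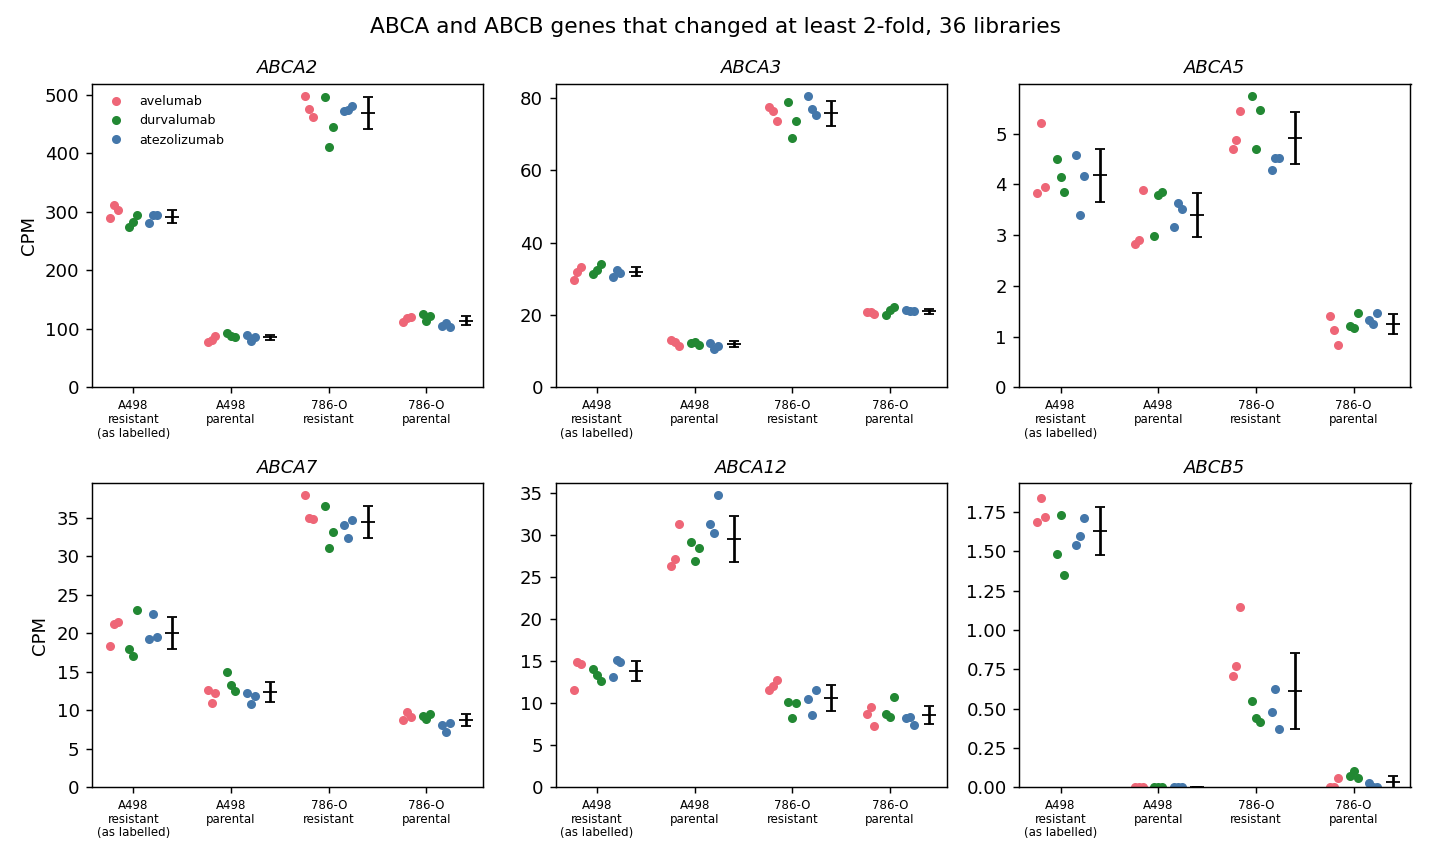
CPM of 5 ABCA genes and ABCB5 in each of the 36 libraries, by cell state and antibody, with black bars for the mean and SD of the 9 libraries of a state. ABCA2, ABCA3 and ABCA7 are highest in 786-O resistant libraries and next in the libraries labelled A498 resistant, and ABCB5 has 0 counts in every A498 parental library.

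Among the ABCB genes, ABCB5, a relative of the drug pumps known from melanoma cells and limbal stem cells, was nearly absent from 786-O parental cells, with 12 counts over 9 libraries, and had 230 counts in resistant cells. That is 0.61 ± 0.243 CPM in resistant and 0.0351 ± 0.0387 CPM in parental libraries, a log2 change of 4.35 ± 0.34 (edgeR adjusted p = 3.18e-13) that was 5.41 under avelumab, 2.41 under durvalumab and 5.23 under atezolizumab. The mitochondrial ABCB8 and ABCB10 did not pass, at 0.05 ± 0.028 and -0.02 ± 0.037. ABCB6, a porphyrin transporter, had 1.35, 1.77 and 2.04 CPM in resistant and 0.779, 0.952 and 1.19 CPM in parental libraries, with no overlap, and changed by 0.76 ± 0.10, and ABCB9, a lysosomal peptide transporter, by -0.29 ± 0.038. Both are uncertain, since 54.7% and 24.5% of their exon bases overlap other annotated genes.

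In the smaller families, ABCD4, which takes part in the release of cobalamin from lysosomes, rose by 0.64 ± 0.037 to 25.8 ± 1.17 CPM in 786-O resistant libraries, against 15.3 ± 1.05 CPM in parental libraries. ABCD3, a peroxisomal carrier of branched fatty acids and bile acid precursors, fell by 0.37 ± 0.032. ABCE1, which splits ribosomes after termination, had 52.3, 59 and 65.3 CPM in resistant and 83.1, 87 and 93 CPM in parental libraries. It fell by 0.69 ± 0.032 and ABCF2 by 0.93 ± 0.026, both uncertain because 11.9% and 45.8% of their exon bases overlap other genes. ABCF1 passed as lower at -0.08 ± 0.022 after scaling, while its CPM without scaling averaged 125 in resistant and 122 in parental libraries. ABCF3 did not pass, at 0.01 ± 0.026. ABCG4, a sterol transporter, had 87 counts in resistant and 3 in parental libraries, a ratio of 27.2 after allowance for depth (exact interval 9.02 to 135, counting error only).

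**Figure D4:**
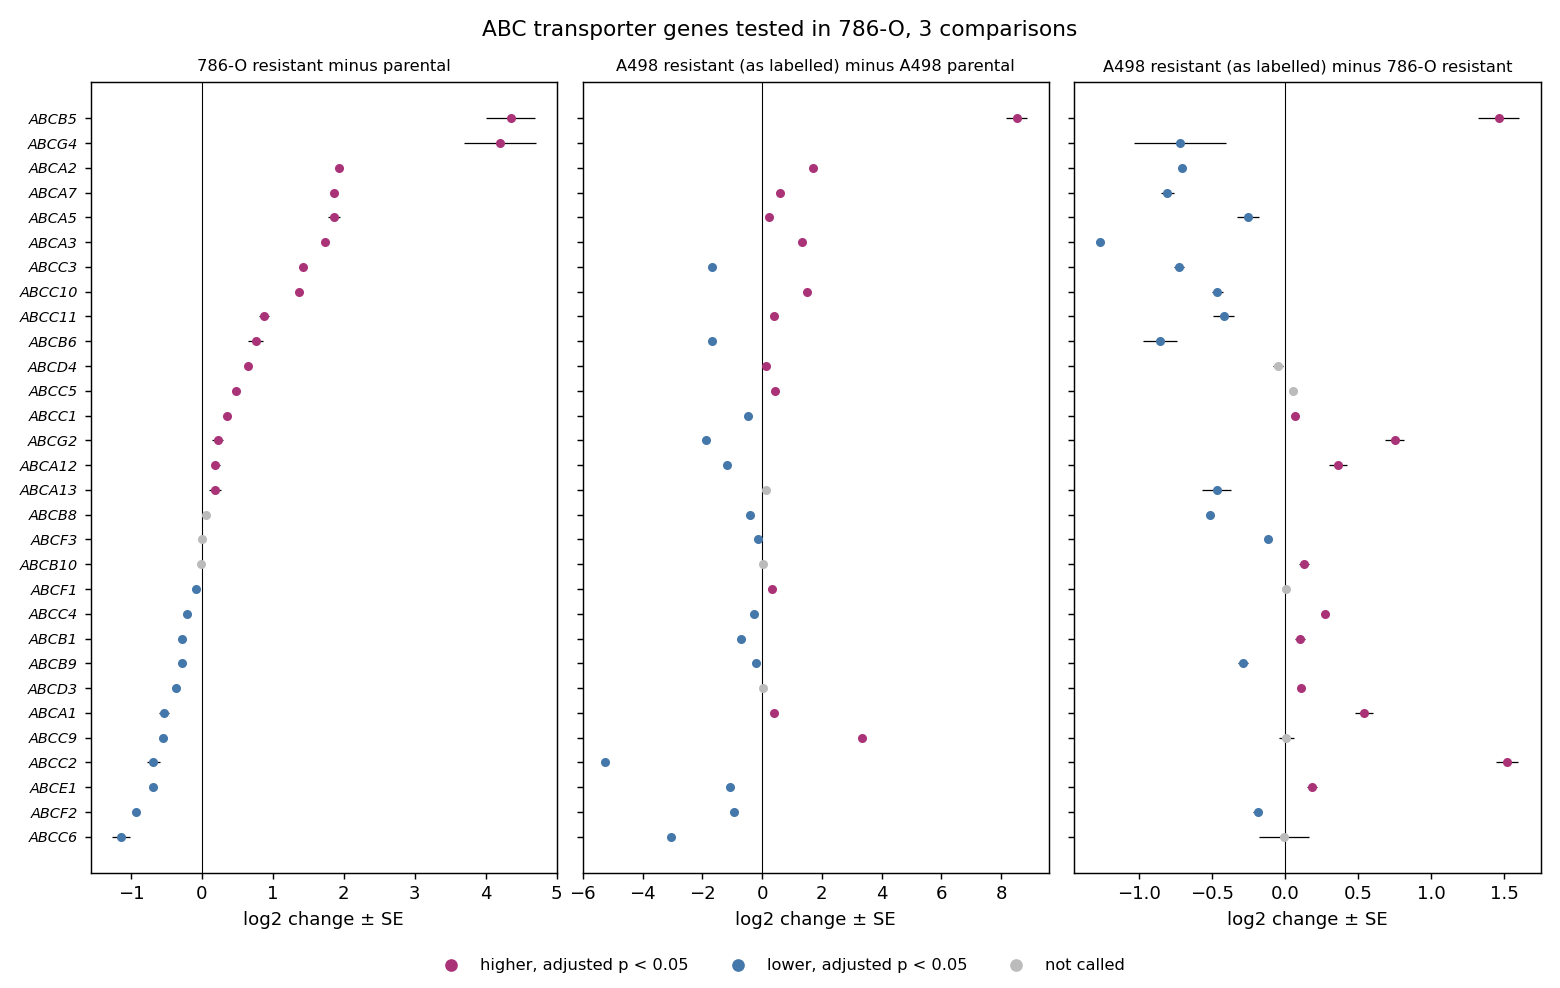
Log2 change ± SE of 30 members tested in 786-O, in 786-O resistant minus parental (left), libraries labelled A498 resistant minus A498 parental (middle) and libraries labelled A498 resistant minus 786-O resistant (right), with different axes. Many genes such as ABCC3, ABCG2 and ABCC9 lie on opposite sides in the left and middle panels, and in the right panel only ABCB5, ABCC2 and ABCA3 exceed 1 log2 unit in size.

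As labelled, the A498 comparison had its largest changes in ABCB5, ABCB4 and ABCC2, and the drug pumps ABCG2 and ABCB1 were lower. ABCC2 had 5.07, 5.71 and 7.13 CPM (lowest, median, highest) in the libraries labelled A498 resistant, against 185, 213 and 224 CPM in A498 parental libraries, a log2 change of -5.26 ± 0.036 (edgeR adjusted p = 2.17e-57). ABCB4, the phosphatidylcholine floppase of the bile canaliculus, had 13 counts over 9 libraries labelled A498 resistant and 6.21 ± 0.697 CPM (1903 counts) in A498 parental libraries, a change of -6.69 ± 0.17. ABCG2 had 5.31, 5.97 and 6.51 CPM in the libraries labelled resistant, against 19.1, 21.2 and 23.2 CPM in parental libraries, a change of -1.88 ± 0.045. ABCB1 had 28.2, 31.1 and 32.7 CPM in the libraries labelled resistant, against 44.5, 47.6 and 50.5 CPM in parental libraries, a change of -0.72 ± 0.030. Neither pump overlapped between the 2 sets. ABCC3 changed by -1.69 ± 0.037, to 99.5 ± 7.7 CPM in the libraries labelled resistant, against 302 ± 13.8 CPM in parental libraries, and ABCC1 by -0.46 ± 0.023, to 168 ± 9.09 CPM against 217 ± 7.43 CPM. ABCC6, uncertain as above, changed by -3.05 ± 0.12 and ABCC4 by -0.26 ± 0.023.

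Among the genes higher in the libraries labelled A498 resistant were ABCC9, ABCB5, ABCC10, ABCA2 and ABCA3, each at least 2-fold. ABCC9 had 12, 12.9 and 15.2 CPM in them, against 0.88, 1.09 and 1.79 CPM in A498 parental libraries, a log2 change of 3.34 ± 0.079 (edgeR adjusted p = 2.69e-35). ABCB5 had 362 counts in the libraries labelled resistant and 0 in parental libraries, at least 167-fold higher when 3 counts over the group are taken as the floor. In both genes every library labelled resistant lay above every parental one. ABCA2 was higher by 1.69 ± 0.025, at 292 ± 11.6 CPM in the libraries labelled resistant and 85.2 ± 4.9 CPM in parental libraries. ABCA3 was higher by 1.33 ± 0.036, ABCC10 by 1.49 ± 0.045, ABCA7 by 0.61 ± 0.053, ABCC5 by 0.43 ± 0.030, ABCC11 by 0.39 ± 0.077 and ABCA5 by 0.23 ± 0.081, of which ABCA5 passed under avelumab alone and ABCC11 under avelumab and durvalumab. The avelumab call of ABCA5, at 0.37, was lost without A498 parental avelumab replicate 1 or 2 or A498 resistant avelumab replicate 2, where it was 0.28, 0.31 and 0.24 (edgeR adjusted p = 0.0897, 0.0619 and 0.136). ABCA12 had 11.51, 14.1 and 15.1 CPM in the libraries labelled resistant, against 26.2, 29.1 and 34.7 CPM in parental libraries, a change of -1.17 ± 0.045. ABCE1, uncertain as above, had 64.2, 68.4 and 71.6 CPM against 130, 136 and 146 CPM, a change of -1.08 ± 0.027, and ABCB6, also uncertain, changed by -1.67 ± 0.12. ABCA12 and ABCE1 did not overlap between the sets. Of the 34 members tested, 13 were higher and 17 lower, beside backgrounds of 44.2% and 44.0%, and 5 were at least 2-fold higher and 10 at least 2-fold lower, beside 15% and 16.8%. Under single antibodies, 14 were higher and 16 lower for avelumab (backgrounds 40.4% and 40.0%), 11 and 17 for durvalumab (39.6% and 40.1%) and 10 and 16 for atezolizumab (39.7% and 39.4%). The median log2 change was -0.05 over the 34 members and 0.0061 over all genes.

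The comparison of the sets labelled resistant, A498 minus 786-O, gave smaller differences. ABCC2 was 1.52 ± 0.075 log2 units higher in the libraries labelled A498 resistant and ABCB5 1.46 ± 0.14 higher, while ABCA3 was lower, at 31.9 ± 1.28 CPM against 75.7 ± 3.45 CPM in 786-O resistant libraries, a difference of -1.27 ± 0.030. ABCC3 differed by -0.73 ± 0.031, ABCA2 by -0.71 ± 0.027, ABCG2 by 0.75 ± 0.062 and ABCB1 by 0.10 ± 0.033. With no filter on low counts the ABCB1 difference was 0.06 and lost its call (edgeR adjusted p = 0.176). ABCC9, which separated the parental lines, had 12.9 ± 1.00 CPM in the A498 set and 12.7 ± 1.21 CPM in the 786-O set, a difference of 0.01 ± 0.051 that did not pass (edgeR adjusted p = 0.928). ABCC6 at -0.01 ± 0.17 and ABCC5 at 0.06 ± 0.029 did not pass either. Of 35 members tested, 13 were higher and 14 lower, beside backgrounds of 32.8% and 33.1%, and 2 were higher and 1 was lower by at least 2-fold, beside 3.59% and 2.57%. ABCC1, at 0.07 ± 0.025, is among the 13, and its call was lost without A498 resistant durvalumab replicate 3 or without 786-O resistant durvalumab replicate 2 (edgeR adjusted p = 0.0574 and 0.0555), and with no filter, at 0.03 (0.572).

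Set against 786-O parental cells instead, a comparison added after the doubt about the line was seen, the libraries labelled A498 resistant had 19 members higher and 12 lower of 35 tested (backgrounds 41.2% and 38.3%), and 7 and 2 by at least 2-fold (15.1% and 5.78%). ABCA2 was 1.20 ± 0.028 higher, ABCA5 1.59 ± 0.093, ABCA7 1.04 ± 0.051, ABCC10 0.88 ± 0.042, ABCC3 0.67 ± 0.032, ABCC5 0.51 ± 0.030 and ABCC1 0.40 ± 0.026. ABCA3 was higher by 0.45 ± 0.033 only. The largest difference was that of ABCB5, at 5.77 ± 0.26, with 12 counts over the 786-O parental libraries. ABCG1 and ABCG4 were also at least 2-fold higher, but neither averaged above 0.46 CPM in any state. ABCB1 at -0.20 ± 0.033 and ABCC9 at -0.56 ± 0.050 were lower. ABCG2 was 0.95 ± 0.065 higher and ABCC2 0.82 ± 0.070 higher. This comparison shares its parental libraries with that of 786-O resistant cells. The log2 changes given above for those cells were 0.22 for ABCG2, -0.69 for ABCC2, 1.93 for ABCA2 and 1.74 for ABCA3.

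The parental lines differed in pumps of conjugates and drugs, among other members. ABCC2 at 211 ± 11.3 CPM in A498 parental and 2.98 ± 0.53 CPM in 786-O parental libraries was 6.09 ± 0.045 log2 units higher in A498 (edgeR adjusted p = 9.93e-59). ABCC3 at 302 ± 13.8 CPM in A498 and 55.9 ± 3.23 CPM in 786-O was 2.37 ± 0.032 higher. ABCG2 at 21.0 ± 1.29 CPM in A498 and 2.79 ± 0.389 CPM in 786-O was 2.84 ± 0.053 higher. A498 parental cells thus held more RNA of 3 pumps of organic anions and drugs, and the sets did not overlap. The 3 were picked here for their large differences, so this separation restates that choice. ABCB4 was 6.41 ± 0.16 higher in A498, ABCA12 1.71 ± 0.056, ABCA5 1.37 ± 0.092, ABCC1 0.87 ± 0.025 and ABCB1 0.53 ± 0.031. ABCC9 went the other way, with 1.22 ± 0.323 CPM in A498 and 17.1 ± 1.31 CPM in 786-O, a difference of -3.89 ± 0.071. ABCG1, a sterol exporter, had 141 counts in A498 parental and 1 in 786-O parental libraries, a ratio of 163 (exact interval 28.7 to 6471, counting error only), and ABCG4 had 58 and 3 counts. ABCB5 had 0 counts in A498 parental and 12 in 786-O parental libraries, so the size of its difference and the SE are not estimates. The ABCB5 call as lower, at -2.99 ± 1.0, was lost without 786-O parental atezolizumab replicate 1 and without 786-O parental avelumab replicate 3, with an edgeR adjusted p of 1.0 in each case. Of 35 members tested, 19 were higher and 13 lower in A498, beside backgrounds of 41.7% and 43.5%, and 11 and 2 by at least 2-fold, beside 20.2% and 11.7%. The median difference was 0.32 over the members and -0.022 over all genes.

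The change with resistance in 786-O was also set against that in A498 as labelled, gene by gene. This difference was called as higher in 786-O in 20 of 35 members and as lower in 9, beside backgrounds of 39.8% and 40.6%, and by at least 2-fold in 11 and 3, beside 20.3% and 13.7%. On the upper side the lowest p-values belonged to ABCC3, with a difference of 3.10 ± 0.044, ABCC2 with 4.56 ± 0.10 and ABCG2 with 2.09 ± 0.083. ABCC3 and ABCG2 were higher in resistant cells of 786-O and lower in the libraries labelled A498 resistant, while ABCC2 was lower in both, by far more in A498 as labelled. On the lower side stood ABCC9 with -3.90 ± 0.092 and ABCF1 with -0.43 ± 0.030. ABCC9 fell in 786-O and ABCF1 did so after scaling alone, and both were higher in the libraries labelled A498 resistant. ABCC5 at 0.03 ± 0.042 and ABCC4 at 0.04 ± 0.033 did not pass. ABCC10 passed at -0.14 ± 0.060 (edgeR adjusted p = 0.0293), a call lost with DESeq2 at -0.08 (adjusted p = 0.203), with other scalings and filters (edgeR adjusted p = 0.102 to 0.466) and in 5 of 36 fits that left out 1 library. ABCB5, at -4.45 ± 1.2, lost its call without 786-O parental atezolizumab replicate 1 or avelumab replicate 3. As A498 parental libraries had 0 ABCB5 counts, the size of that difference and its SE are not estimates. ABCB4, at 5.69 ± 0.80, lost its call without 786-O resistant durvalumab replicate 1. With the origin of one of the 4 sets in doubt, these values cannot be read as different responses of 2 lines to selection.

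Between antibodies, ABCC5 was the member that differed in both parental lines. In A498 parental cells it had 28.8, 31.5 and 33.4 CPM under avelumab and 30.8, 31.9 and 32.8 CPM under durvalumab, against 27.3, 26.1 and 26.3 CPM under atezolizumab. Every avelumab and durvalumab library was above every atezolizumab library. The log2 difference from atezolizumab was 0.22 ± 0.054 for avelumab (edgeR adjusted p = 0.019) and 0.25 ± 0.054 for durvalumab (edgeR adjusted p = 0.00889). In 786-O parental cells ABCC5 had 27.1, 29.2 and 28.3 CPM under avelumab and 27.3, 28.1 and 29.9 CPM under durvalumab, against 24.4, 24.8 and 22.5 CPM under atezolizumab. Again no library overlapped with atezolizumab. ABCC5 is described here because it was called in these same libraries, so the separation restates the calls. The differences were 0.23 ± 0.052 for avelumab (edgeR adjusted p = 0.0111) and 0.23 ± 0.052 for durvalumab (edgeR adjusted p = 0.0193). Both differences within a line share its atezolizumab libraries, so they are not independent of each other.

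These ABCC5 calls rest on few libraries. In A498 parental cells the avelumab call was lost without atezolizumab replicate 3, avelumab replicate 2 or avelumab replicate 3 (edgeR adjusted p = 0.0876, 0.111 and 0.0976), and the durvalumab call without atezolizumab replicate 3 (0.0697). In 786-O parental cells the avelumab call of ABCC5 was lost without atezolizumab replicate 3 or avelumab replicate 2 (edgeR adjusted p = 0.0775 and 0.0931). The durvalumab call of ABCC5 was lost without atezolizumab replicate 3, durvalumab replicate 2 or durvalumab replicate 3 (0.138, 0.0774 and 0.0845). It was also lost with a replicate block (edgeR adjusted p = 0.0525). In the cells labelled resistant, ABCC5 had log2 differences of -0.01 ± 0.049 for avelumab and -0.05 ± 0.050 for durvalumab in A498 as labelled, and of -0.04 ± 0.055 and -0.03 ± 0.055 in 786-O. The difference between 786-O resistant and 786-O parental cells in these contrasts was -0.26 ± 0.075 for avelumab and -0.25 ± 0.075 for durvalumab, and neither passed (edgeR adjusted p = 0.0735 and 0.237). The same difference was not tested in A498.

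ABCA2 also differed between antibodies in 786-O parental cells. It had 125, 114 and 122 CPM under durvalumab, against 104, 109 and 104 CPM under atezolizumab, a difference of 0.17 ± 0.039 (edgeR adjusted p = 0.0242). Every durvalumab library was above every atezolizumab library. ABCA2 is described here because it was called in these same libraries, so the separation restates the call. For avelumab minus atezolizumab ABCA2 differed by 0.12 ± 0.039, which did not pass (edgeR adjusted p = 0.0715). The durvalumab call of ABCA2 was lost without atezolizumab replicate 1 or 3 or durvalumab replicate 1 or 3 (edgeR adjusted p = 0.0669, 0.119, 0.0667 and 0.0603). It was also lost in 1 fit of all 36 libraries (0.11) and with a replicate block (edgeR adjusted p = 0.0792). In all, 2 of 30 members tested were higher for avelumab (background 2.71%) and 3 of 30 for durvalumab (background 1.29%), and none were lower (1.63% and 0.535%). In A498 parental cells the ABCC5 calls were 1 of 33 members for each antibody, beside 1.71% and 1.78% of all genes, and none were lower (1.68% and 1.02%). Durvalumab minus avelumab gave 0 members called by edgeR or DESeq2 in both parental lines (at most 0.0599% of all genes), with 4 of 33 members in A498 and 2 of 30 in 786-O at an unadjusted p under 0.05.

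No member was called by edgeR between antibodies in the libraries labelled A498 resistant (31 members tested) or in 786-O resistant cells (32 members tested). Of all genes, at most 0.00571% were called higher and 0.0114% lower in any pair of the A498 set, and at most 0.842% and 0.365% in any pair of the 786-O set. At an unadjusted p under 0.05, 2, 0 and 3 members in A498 as labelled and 6, 5 and 6 in 786-O were found for avelumab minus atezolizumab, durvalumab minus atezolizumab and durvalumab minus avelumab in that order. DESeq2 called 1 member as higher in 786-O resistant cells for avelumab minus atezolizumab and none in the other pairs of these cells. ABCB1 and ABCG2 were not called between antibodies in any state. The antibody by state test in 786-O called 0 of 32 members by edgeR and 0 by DESeq2, with 6 and 7 members at an unadjusted p under 0.05 for avelumab and durvalumab. The background there was 0.454% higher and 0.743% lower for avelumab, and 0.00516% and 0.0465% for durvalumab.

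**Figure D5:**
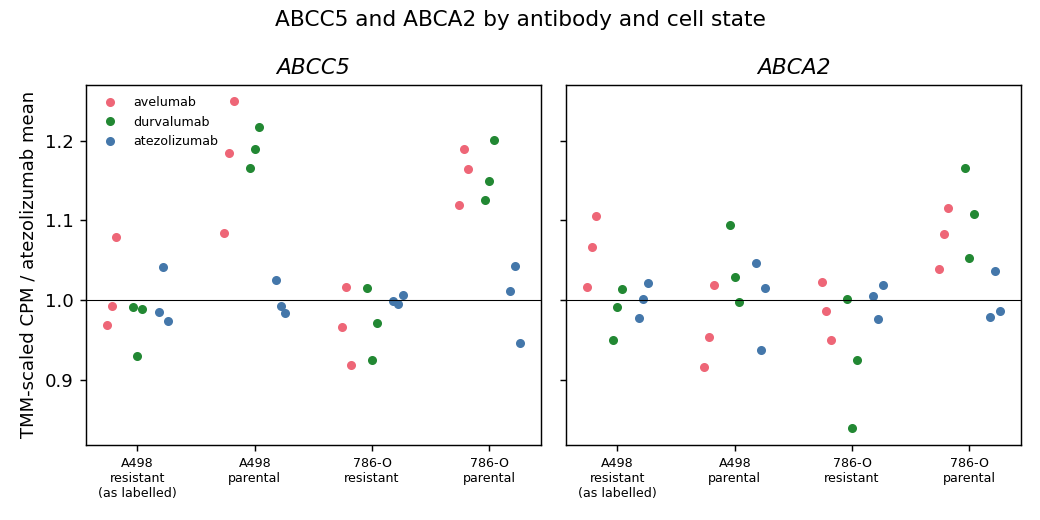
Level of ABCC5 and ABCA2 in each library, as scaled CPM divided by the atezolizumab mean of the same cell state, so that the atezolizumab points scatter about 1. ABCC5 under avelumab and durvalumab lies above all atezolizumab libraries in both parental lines and about 1 in the cells labelled resistant.

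Genes that work beside the ABC proteins were examined as lists. Among 25 uptake and exchange carriers of organic ions and drugs (SLC22, SLCO and SLC47 genes), 15 were tested in 786-O, and 11 were higher and 2 lower in resistant cells, beside 43.6% and 40.2% of all genes, with a median log2 change of 1.31 against 0.033 over all genes. SLCO2B1, an uptake carrier of steroid conjugates, had 3.81 ± 0.350 CPM in resistant and 0.452 ± 0.125 CPM in parental libraries, a change of 2.94 ± 0.11. SLC22A18 rose by 1.94 ± 0.042, and SLC22A3, an organic cation carrier, fell by 6.88 ± 0.29 to 6 counts over 9 resistant libraries, against 479 in parental libraries. In A498 as labelled, 7 of 18 tested were higher and 9 lower, beside 44.2% and 44.0% of all genes. SLC22A3 was lower there too, at 15 counts in the libraries labelled resistant against 16339 in parental libraries, and SLCO2B1 was lower, at 1.09 ± 0.275 CPM against 69.3 ± 5.08 CPM.

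Of 14 tested transcription factors of pump genes, 6 rose and 7 fell in 786-O, which is near the shares of 43.6% and 40.2% over all genes, and 4 rose and 10 fell in A498 as labelled, beside 44.2% and 44.0%. The same shares are the background of the counts that follow. NR1H4, the bile acid receptor, was at 2.13 ± 0.660 CPM in 786-O resistant and 0.700 ± 0.352 CPM in 786-O parental libraries, a change of 1.59 ± 0.13. In A498 as labelled it was lower, at 3.68 ± 0.612 CPM against 22.1 ± 3.28 CPM in parental libraries, and HNF4A, a factor of proximal tubule and liver, was at 0.424 ± 0.0914 CPM against 5.63 ± 2.71 CPM. Of 13 tested partners in sterol efflux, 4 rose and 7 fell in 786-O, beside the same shares. NPC2, which carries cholesterol in the lysosome, rose by 1.42 ± 0.029 to 148 ± 7.32 CPM in resistant libraries, against 51.3 ± 2.74 CPM in parental libraries. NR1H3, the oxysterol receptor that induces ABCA1, was lower in A498 as labelled, by a log2 change of -1.93 ± 0.057. ABCA1 itself was higher there, by 0.39 ± 0.050. All 7 translation partners of ABCE1 and the ABCF proteins fell in 786-O, beside 40.2% of all genes, GSPT1 by 0.69 ± 0.021 and ETF1 by 0.55 ± 0.023. Of 14 haem and iron-sulfur partners of the mitochondrial ABCB proteins, 3 rose and 11 fell in 786-O, beside 43.6% and 40.2% of all genes, and ALAD, of haem synthesis, rose by 1.00 ± 0.036 to 50.0 ± 2.89 CPM in resistant libraries, against 23.2 ± 2.23 CPM in parental libraries. Of 14 peroxisomal partners of the ABCD proteins, 7 rose and 4 fell in 786-O, beside the same shares. In A498 as labelled, 8 of 14 haem and iron-sulfur partners were higher and 6 lower, beside 44.2% and 44.0% of all genes. There the counts were 7 and 6 of 14 for sterol efflux, 1 and 6 of 7 for translation and 7 and 6 of 15 for peroxisomal partners. KCNJ8, the channel pore that joins ABCC9 (10.8% of its exon bases overlap another gene, so uncertain), was at 1.92 ± 0.296 CPM in 786-O resistant and 0.879 ± 0.254 CPM in 786-O parental libraries, whereas ABCC9 fell. In A498 as labelled, both were higher, KCNJ8 by 3.42 ± 0.16.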

How the data were processed

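RNA of all 36 samples was made into poly-A selected, strand-marking libraries and sequenced, per the labels' protocols. The authors deposited whole-number counts per gene in 1 table. The submitters' processing notes name bcl2fastq 2.19.0, Trimmomatic 0.36.6, HISAT2 2.1.0, featureCounts 1.6.3 and the build GRCh38. The sources used here give neither the annotation release nor the strand setting, so genes with at least 10% of exon bases shared with another gene are marked uncertain. Deposited counts were tested with edgeR 4.0.16 (R 4.3.3, limma 3.58.1): quasi-likelihood fits, robust, with TMM scaling and filterByExpr (minimum count 10, total 15), Benjamini-Hochberg adjustment over all genes and a threshold of 0.05. Fits held the 9 libraries of a state for antibodies, the 18 of a line for resistance, and all 36 across lines. Errors of log2 values are SE, taken as the size of the log2 change over the square root of the test's F value. Those of CPM are SD over 9 libraries. CPM used raw totals. Gene models were GENCODE 29, and 45459 of 45478 IDs matched a symbol. No 2 columns were identical. Some members enter the counts but are not reported here by name. Genes given library values were the drug pumps, the ABCC genes, and other members with at least 1 CPM and a 2-fold change past the threshold. ABCA1 was added outside this rule, and ABCC8 and ABCC12 are given as summed counts. Overlap of library ranges is described for named genes only, was not counted over all genes, and adds no support to their calls. Partner genes named were, from each list, those of largest change with at least 1 CPM. The members and lists were chosen with earlier results of these data known. Alternatives were DESeq2 1.42.0, other scalings and filters, a replicate block, other sets of libraries and leaving out each library. The fits were also run on simulated independent libraries with the same spread for every gene, which cannot test the effect of batch or of a doubtful label.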

Additional observations from a re-analysis of the deposited data

Results flagged for a closer look

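In 20 of 35 ABC members the resistant minus parental log2 change was higher in 786-O than in A498 as labelled, and in 9 it was lower, beside 39.8% and 40.6% of all genes, by a direct test of the difference in 1 edgeR fit of 36 libraries. These counts were picked out because the 2 lines, as labelled, differed under the same contrast. The members of lowest p reported here had the values that follow. ABCC3 differed by 3.10, with changes of 1.42 in 786-O and -1.69 in A498 as labelled. ABCC2 differed by 4.56, with changes of -0.69 and -5.26 in that order. ABCG2 differed by 2.09, from changes of 0.22 and -1.88. ABCC9 differed by -3.90, from changes of -0.54 and 3.34. ABCF1 differed by -0.43. HIF1A averaged 8.99 CPM in the libraries labelled A498 resistant, against 294 CPM in A498 parental libraries, and the part of the doubtful line label in these differences was not tested further.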

How the results depend on the processing

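Counted at the 2-fold limit, in 786-O resistance 13 instead of 8 members were higher with no filter, and 0 with a mean of at least 1 CPM or 2 with 1 fit of all libraries, instead of 1, were lower. Against 786-O parental libraries, a setting chosen after seeing the data, the libraries labelled A498 resistant had 2 instead of 10 members lower at the 2-fold limit. Between parental lines, 1 instead of 2 was lower at the 2-fold limit with at least 1 CPM, with the compared groups alone, and without 786-O parental atezolizumab replicate 1 or avelumab replicate 3, the range being 1 to 2. Between the resistant sets, 1 (at least 1 CPM) or 4 (no filter) instead of 2 were higher at the 2-fold limit, and 2 instead of 1 were lower with no filter. The counts that follow are at the adjusted p threshold alone. In resistance by line, 5 instead of 9 were lower with at least 1 CPM. With no filter, antibody pairs gained 1 lower member for avelumab and 1 for durvalumab minus atezolizumab in A498 parental cells, 1 higher for avelumab minus atezolizumab and 2 lower for durvalumab minus avelumab in 786-O resistant cells, and 1 lower in the durvalumab by state test, all instead of 0. With 1 fit of all libraries, 786-O parental cells had 1 instead of 2 members higher for avelumab and 1 instead of 3 for durvalumab, 786-O resistant cells 1 higher for avelumab, and the avelumab by state test 1 lower. DESeq2 gave 1 instead of 2 for avelumab in 786-O parental and 1 instead of 0 in 786-O resistant cells. ABCC4 in 786-O under avelumab turned to 0.0052 with raw library sizes, against -0.10.

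No clear pairing of the libraries by replicate number was seen. Same-numbered libraries had correlations of -0.155 to 0.109 in their deviations from group means, and 14 of 36 libraries correlated best with their own number. With 3 libraries per group, these values cannot exclude a pairing. A replicate block moved 4 of 60 counts: in 786-O parental cells 1 instead of 2 members were higher for avelumab and 0 instead of 3 for durvalumab minus atezolizumab, and in 786-O resistant cells 1 was higher for avelumab minus atezolizumab and 2 were lower for durvalumab minus avelumab, instead of 0.

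With 1 library left out at a time, 0 to 3 members were higher for avelumab and 0 to 3 for durvalumab minus atezolizumab in 786-O parental cells. In 786-O resistant cells the ranges were 0 to 1 higher for avelumab minus atezolizumab, and 0 to 1 higher and 0 to 4 lower for durvalumab minus avelumab. In A498 parental cells they were 0 to 1 higher and 0 to 2 lower for avelumab, and 0 to 1 higher and 0 to 1 lower for durvalumab minus atezolizumab. In the libraries labelled A498 resistant, 0 to 2 were lower for durvalumab minus avelumab. In the antibody by state test, 0 to 1 were higher and 0 to 1 lower for avelumab, and 0 to 3 lower for durvalumab. The cause of these moves was not tested. The filter on low counts kept 11 members, at up to 0.19 CPM, out of the main fits, and they entered those with no filter.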
